A study of Mus musculus with 16 samples.

Results

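Transcripts of 10 circadian clock genes were examined in mouse quadriceps: Arntl, Npas2, Per1, Per2, Per3, Cry2, Nr1d1, Dbp, Hlf and Ciart. They were chosen by name, with earlier results of these data known, from the 19108 gene symbols counted in every library. All 10 passed the filter on low counts. The libraries were made from snap-frozen quadriceps of 16 C57BL/6 mice aged 6 months and fed chow, in 4 groups of 4. Females and males were either wild type (WT) or carried an Ant1 transgene, labelled ANT1(Tg)/+ and called Tg here. Ant1 (Slc25a4) exchanges ADP and ATP across the inner mitochondrial membrane, and the series compares muscle with and without the extra Ant1. The sources used here give neither the promoter of the transgene nor the clock time at which the muscles were collected. Each library is therefore 1 point of an unknown phase, and levels below are levels at that point, not amplitudes or phases of a rhythm.

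The clock is a feedback loop of transcription present in nearly every cell. ARNTL (also called BMAL1) pairs with CLOCK or with its relative NPAS2, binds E-box sequences and switches on the Per, Cry, Nr1d1, Dbp and Ciart genes, whose products act back on the loop. PER and CRY proteins and CIART inhibit the ARNTL complex, and NR1D1 (REV-ERB alpha) represses Arntl, so that in a rhythmic tissue Arntl and Npas2 peak at about the opposite time of day to Nr1d1, Dbp and the Per genes. DBP and HLF are relatives in the PAR family of leucine zipper factors and bind D-box sequences. In skeletal muscle this loop is known for its ties to genes of glucose uptake and fuel choice.

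Promoter sequences are shown for the 3 of these genes whose window held an E-box or D-box, because these motifs are how the loop's factors are known to reach their targets. RefSeq windows of the GRCm38.p6 build were found for 9 of the 10 genes, 11 windows in all, and the 250 bases before each annotated start were searched on both strands for CACGTG (the E-box), CACGTT (a variant E-box), TTANGTAA (the D-box) and for TAGGTCA and TGGGTCA (sites of the ROR and REV-ERB receptors). Per2 was not matched. No match overlapped a match of another motif. The lines below run 5′ to 3′ in the gene's direction, with E-boxes or D-boxes in capitals. The Ciart window is chr3:95882252-95882478 on the minus strand, after 23 bases that GENCODE M21 places in a Ciart exon were left out. The Per3 window is chr4:151044666-151044915 on the minus strand and lies just upstream of the annotated gene. The Per1 window is chr11:69098699-69098947 on the plus strand, upstream of 1 RefSeq start and in an intron of longer annotated Per1 transcripts, after 1 exonic base was left out.
Ciart: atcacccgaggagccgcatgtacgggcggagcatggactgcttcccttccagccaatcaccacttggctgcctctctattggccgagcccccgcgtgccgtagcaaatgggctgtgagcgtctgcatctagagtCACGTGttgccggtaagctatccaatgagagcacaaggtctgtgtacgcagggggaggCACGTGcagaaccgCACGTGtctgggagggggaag
Per3: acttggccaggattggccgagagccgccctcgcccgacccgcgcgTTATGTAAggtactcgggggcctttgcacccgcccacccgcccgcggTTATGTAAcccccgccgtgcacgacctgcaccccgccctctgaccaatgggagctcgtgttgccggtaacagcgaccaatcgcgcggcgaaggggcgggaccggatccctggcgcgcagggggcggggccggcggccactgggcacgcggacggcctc
Per1: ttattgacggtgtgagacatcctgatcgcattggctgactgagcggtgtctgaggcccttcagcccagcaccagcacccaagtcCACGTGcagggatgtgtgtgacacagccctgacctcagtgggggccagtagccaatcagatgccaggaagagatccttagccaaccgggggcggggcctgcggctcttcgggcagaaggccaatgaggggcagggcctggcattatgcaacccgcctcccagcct
Ciart held 3 E-boxes, which begin 116, 58 and 44 bases before its start. Per1 held 1, beginning 166 bases before. E-boxes occurred in 6.04% of 32536 distinct promoter windows of the same length. The D-box letters occurred 2 times before Per3, at 205 and 158 bases, and in 2.03% of all windows. The variant E-box was present in the windows of Cry2 and Nr1d1 (3.87% of all windows), and the 2 receptor motifs (2.24% and 3.26% of all windows) in none of the 11 windows. A match describes letters in the window and is not a measured binding site.

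Library totals ranged from 17435900 to 30680300 estimated counts, and levels are given in CPM, a gene's count as a share of its library's total, on library sizes scaled by TMM (the trimmed mean of M-values). A library with 0 counts would allow up to 0.101 to 0.165 CPM. Npas2, the least abundant of the 10, had 9 to 48 counts per library and carries the largest counting error, and such limits cover counting error only. Slc25a4 itself was at 2792 to 3919 CPM in WT and 8507 to 11044 CPM in Tg libraries, as labelled (log2 difference 1.53, SE 0.08, adjusted p = 4.89e-10). All 7 muscle fibre markers were present in every library, at 110 CPM or more. Single markers varied widely, with Myh2 at 110 to 3856 CPM, Mb at 163 to 1657 CPM and Myh1 at 1359 to 8039 CPM. The sums of all 7, to which Myh4, Acta1 and Ckm add most, were 126619 to 196865 CPM in WT females. In Tg females the sums were 120078 to 171001 CPM, which overlaps. In males they were 158494 to 181189 CPM in WT and 118223 to 157823 CPM in Tg, so every Tg male lay below every WT male. Adipocyte markers varied: WT female 1, WT female 2 and WT male 1 summed to 1512, 1976 and 1704 CPM over 6 markers, and Tg female 4 to 699 CPM with Ucp1 at 252 CPM, against 25.9 to 878 CPM in the other 12. None of the 6 adipocyte markers was at 0 in any library, while Ucp1 was at 0 in 7. Results are therefore also given without those 4 libraries where a call changed. In bulk tissue, fewer cells of a type and less RNA per cell cannot be told apart. The labels call the libraries separate samples, and p values measure the spread between them, which may be technical.

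Compared per length of annotated exons, the transcripts had a wide order of levels. Nr1d1 was highest in WT, at 83.5 ± 12.9 CPM per kb (SD, n = 8), followed by Dbp at 24.002 ± 6.67, Per1 at 9.92 ± 2.75 and Cry2 at 7.21 ± 1.09. Arntl (4.15 ± 0.924 CPM per kb), Ciart (3.52 ± 1.03), Per3 (3.12 ± 0.543), Per2 (2.51 ± 0.681) and Hlf (2.47 ± 0.594) followed with overlapping ranges, and Npas2 was lowest at 0.254 ± 0.0805. In Tg libraries the first 4 places and the last 2 were held by the genes that held them in WT. Between them the order was Ciart (7.84 ± 1.84 CPM per kb), Per3 (4.34 ± 0.539), Per2 (3.49 ± 0.838) and Arntl (2.37 ± 0.574). Arntl stood above Ciart, Per3 and Per2 by its mean in WT and below all 3 in Tg.

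The effect of genotype on the 10 genes was tested first. Averaged over the sexes, 7 of the 10 differed between Tg and WT at an adjusted p under 0.05: Ciart, Per2, Per3 and Cry2 were higher in Tg, and Arntl, Nr1d1 and Hlf were lower. Of all 13666 tested genes, 30.4% were called in this comparison (17.2% higher and 13.3% lower). The median size of the log2 difference was 0.48 over the 10 genes and 0.19 over all tested genes. Over 17 other tested genes of the clock it was 0.18. The 10 genes were chosen with earlier results of these data known, so these figures describe the 10 and do not test clock genes as a set. Adjusted p values are those of edgeR's quasi-likelihood test with Benjamini-Hochberg adjustment over all tested genes unless another test is named. DESeq2 and limma-voom also called 7 of the 10 each. Without the 4 libraries rich in adipocyte markers 5 were called, because Per2 (log2 0.45, adjusted p = 0.115) and Cry2 (log2 0.27, adjusted p = 0.0534) were no longer past the threshold among the 12 libraries left.

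**Figure D1:**
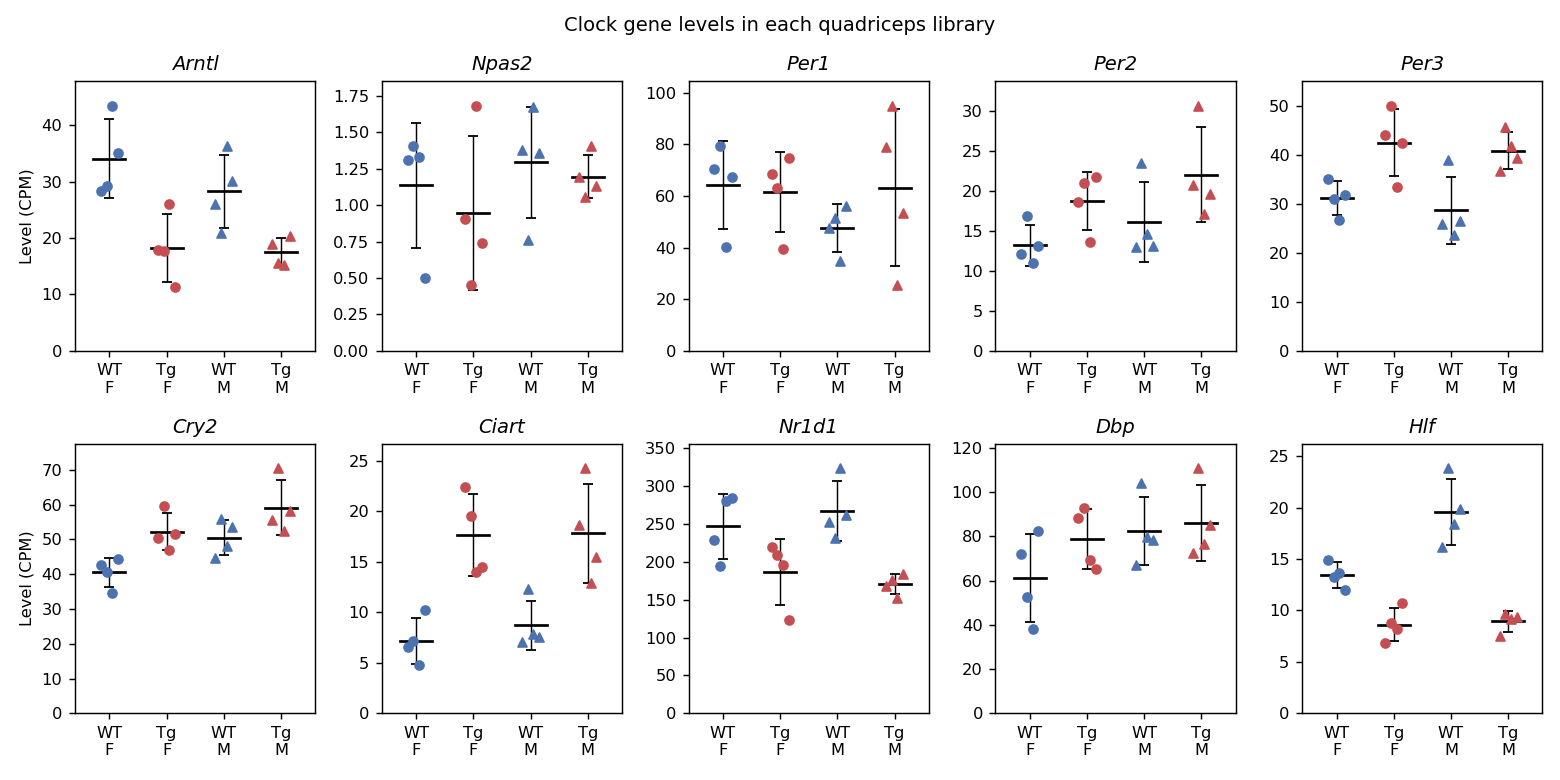
Level of each clock gene in CPM (vertical axes, from 0) in every library of the 4 groups; circles are females, triangles males, blue WT and red Tg, and horizontal lines with bars give the group mean ± SD of 4. The Tg libraries of Ciart (12.9 to 24.3 CPM) lie above all WT libraries (4.803 to 12.3 CPM), and those of Hlf (6.83 to 10.8 CPM) below all WT libraries (11.97 to 23.8 CPM).

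Arntl (chr7:113207465-113314126, mm10), the activator that the loop cannot do without, was lower in Tg muscle. It stood at 28.4, 29.2, 43.5 and 35.1 CPM in the 4 WT females and at 26.0, 20.9, 36.3 and 30.0 CPM in the WT males. In Tg it stood at 17.9, 17.6, 26.1 and 11.3 CPM in females and at 18.9, 15.5, 15.2 and 20.3 CPM in males. Every Tg library lay below every WT library of its sex, a separation seen for 7.22% of tested genes in females and 11.7% in males. Of the 8 Tg libraries, 7 lay below the lowest WT library of either sex. The mean was 31.2 ± 6.95 CPM in WT and 17.9 ± 4.32 CPM in Tg (SD, n = 8 each). The averaged log2 difference was -0.80 (SE 0.16, adjusted p = 0.00138), a 1.74-fold lower level in Tg. It fell in females (log2 -0.90, SE 0.22, adjusted p = 0.0128) and in males (log2 -0.70, SE 0.22, adjusted p = 0.0425). The averaged call held when any 1 library was left out (adjusted p up to 0.00385). The call in males was lost under 10 of the 16 such omissions, those of any Tg male, of WT male 1, 3 or 4, of Tg female 1 or 2 and of WT female 4 (log2 -0.56 to -0.78, adjusted p up to 0.134). It was also lost with adipocyte markers as a covariate (log2 -0.64, adjusted p = 0.0571) and with no filter on low counts (log2 -0.69, adjusted p = 0.0663).

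Npas2 (chr1:39193731-39363236), which can stand in for CLOCK beside ARNTL, showed no difference past the threshold. It was at 1.31, 1.41, 1.33 and 0.496 CPM in WT females and 1.38, 0.762, 1.68 and 1.36 CPM in WT males. Tg females had 0.908, 0.452, 1.68 and 0.742 CPM, and Tg males 1.19, 1.06, 1.41 and 1.13 CPM. The genotypes overlapped in both sexes. The averaged log2 difference was -0.18 with a 95% interval of -0.68 to 0.32 (adjusted p = 0.630), which covers changes of either sign. Its sign turned without the 4 adipocyte-rich libraries (log2 0.03, adjusted p = 0.959).

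Among the inhibitors of the ARNTL complex, Ciart (chr3:95878503-95882251), also known as CHRONO, was higher in Tg by the widest margin of the 10 genes. WT females were at 6.58, 7.13, 4.803 and 10.3 CPM and WT males at 7.04, 12.3, 7.88 and 7.61 CPM. Tg females were at 22.4, 19.5, 14.003 and 14.5 CPM and Tg males at 18.6, 24.3, 12.9 and 15.5 CPM. All 8 Tg libraries lay above all 8 WT libraries, a separation seen for 7.92% of the tested genes in either direction. The mean rose from 7.95 ± 2.33 CPM to 17.7 ± 4.16 CPM, a 2.24-fold difference (log2 1.16, SE 0.18, adjusted p = 0.000165). The log2 difference was 1.29 in females (SE 0.26, adjusted p = 0.0028) and 1.03 in males (SE 0.25, adjusted p = 0.00976). In males without the adipocyte-rich libraries it was 0.91 (adjusted p = 0.0605). The promoter with the 3 E-boxes shown above belongs to this gene.

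The Per genes encode further inhibitors in the loop, and their changes were unequal. Per3 (chr4:151003652-151044665) was at 35.1, 30.9, 26.7 and 31.9 CPM in WT females and 25.8, 38.9, 23.6 and 26.4 CPM in WT males. Tg females had 44.0, 50.1, 33.5 and 42.4 CPM and Tg males 36.8, 45.6, 41.7 and 39.4 CPM. The groups overlapped through single libraries, Tg female 3 and WT male 2, and 6 of the 8 Tg libraries exceeded the highest WT library. Per3 rose by a log2 difference of 0.48 (SE 0.10, adjusted p = 0.00236), from 29.9 ± 5.22 to 41.7 ± 5.18 CPM. The difference was 0.45 in females (SE 0.15, adjusted p = 0.0478) and 0.51 in males (SE 0.15, adjusted p = 0.0241). The call in females was lost under 12 of 16 omissions of 1 library (all but those of WT female 1, Tg female 3, WT male 2 and WT male 3; log2 0.36 to 0.46, adjusted p up to 0.143). It was also lost in limma-voom (adjusted p = 0.0536), with no filter on low counts (adjusted p = 0.0507) and with adipocyte markers as a covariate (log2 0.42, adjusted p = 0.0726). The call in males was lost under 5 (WT males 1, 3 and 4 and Tg males 2 and 3; log2 0.43 to 0.50, adjusted p up to 0.0849). Both were also lost without the adipocyte-rich libraries (adjusted p = 0.13 in females and 0.118 in males), while the averaged call held (log2 0.48, adjusted p = 0.0231). Camta1 overlaps Per3 on the same strand and stood at 13.99 ± 2.02 CPM in WT and 15.5 ± 2.46 CPM in Tg. Strand does not separate reads of a stretch that the 2 genes share.

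Per2 (chr1:91415982-91459324) had a difference of the same size with a wider spread. WT females were at 12.1, 16.9, 10.9 and 13.1 CPM and WT males at 13.1, 23.5, 14.7 and 13.1 CPM. Tg females were at 18.6, 21.03, 13.7 and 21.8 CPM and Tg males at 20.8, 30.7, 17.2 and 19.7 CPM. WT male 2 exceeded all Tg libraries but Tg male 2, so the genotypes overlapped. Per2 rose by 0.48 on the log2 scale (SE 0.16, adjusted p = 0.0312), with 0.50 in females (adjusted p = 0.136) and 0.46 in males (adjusted p = 0.185). The averaged call was lost when any 1 of 8 libraries was left out (WT female 1 or 3, WT male 1, 3 or 4, Tg female 2 or 4, or Tg male 2; log2 0.38 to 0.46, adjusted p 0.0587 to 0.0685).

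Per1 (chr11:69095217-69109960), the Per gene that also answers acutely to hormones and other stimuli, did not pass the test. It was at 70.6, 79.3, 40.1 and 67.2 CPM in WT females and 47.5, 51.5, 34.6 and 56.2 CPM in WT males. Tg females had 68.6, 63.2, 39.4 and 74.7 CPM and Tg males 79.0, 95.05, 25.5 and 53.5 CPM. The highest and the lowest of the 16 values were both in Tg males. The averaged log2 difference was 0.17, with a 95% interval of -0.30 to 0.64 (adjusted p = 0.621).

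Cry2 (chr2:92403646-92434043) encodes a cryptochrome, the partner with which PER proteins inhibit ARNTL. WT females were at 42.6, 40.6, 34.7 and 44.3 CPM and WT males at 44.8, 55.8, 48.0 and 53.6 CPM. Tg females were at 50.4, 59.7, 47.1 and 51.6 CPM and Tg males at 55.5, 70.5, 52.3 and 58.2 CPM. All Tg females lay above all WT females, as for 10.8% of tested genes, and the males overlapped. Cry2 rose by a log2 difference of 0.30 (SE 0.08, adjusted p = 0.00737), with 0.36 in females (SE 0.11, adjusted p = 0.029) and 0.23 in males (SE 0.11, adjusted p = 0.17). The call in females was lost without Tg female 2 (log2 0.29, adjusted p = 0.0969), without WT female 3 (log2 0.30, adjusted p = 0.083) and without the adipocyte-rich libraries (log2 0.40, adjusted p = 0.0982).

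Nr1d1 (chr11:98767932-98775333), the nuclear receptor that represses Arntl, was lower in Tg. It was at 229, 195, 280.01 and 283 CPM in WT females and 252, 231, 323 and 262 CPM in WT males. Tg females had 219, 209, 196 and 123 CPM and Tg males 168, 175, 153 and 184 CPM. All Tg males lay below all WT males, as for 11.7% of tested genes, and the females overlapped. Nr1d1 fell by a log2 difference of -0.53 (SE 0.12, adjusted p = 0.00257), from 257 ± 39.7 to 178 ± 31.03 CPM. The difference was -0.65 in males (SE 0.16, adjusted p = 0.0112) and -0.40 in females (SE 0.16, adjusted p = 0.102). In females it passed the threshold without WT female 2 (log2 -0.50, adjusted p = 0.0499) and without the adipocyte-rich libraries (log2 -0.44, adjusted p = 0.0341). WT female 2 had the lowest WT level. The second omission takes out the WT females at 229 and 195 CPM and the Tg female at 123 CPM, and leaves WT females 3 and 4 alone. Thra overlaps Nr1d1 on the opposite strand and stood at 65.3 ± 7.52 CPM in WT and 74.3 ± 5.40 CPM in Tg. The libraries were stranded, but whether the counting used strand is not given in the sources used here, so reads of the shared stretch could have gone to either gene.

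Dbp and Hlf, the D-box binding pair, did not move together. Dbp (chr7:45705088-45710203) was at 71.96, 52.6, 38.0 and 82.5 CPM in WT females and 67.3, 104.1, 79.7 and 78.5 CPM in WT males. Tg females had 88.4, 92.6, 69.5 and 65.3 CPM and Tg males 72.4, 110.8, 76.7 and 85.1 CPM. The genotypes overlapped, and the averaged log2 difference of 0.22 did not pass the test (95% interval -0.08 to 0.52, adjusted p = 0.315). Sphk2, which overlaps Dbp on the opposite strand, stood at 14.1 ± 1.98 CPM in WT and 17.1 ± 1.01 CPM in Tg.

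Hlf (chr11:90336536-90390895) had the smallest adjusted p of the 10 genes. WT females were at 14.9, 13.2, 13.7 and 11.97 CPM and WT males at 16.2, 23.8, 18.4 and 19.8 CPM. Tg females were at 6.83, 8.78, 8.18 and 10.8 CPM and Tg males at 7.49, 9.70, 9.19 and 9.38 CPM. All 8 Tg libraries lay below all 8 WT libraries, where 7.92% of tested genes separated in either direction. Hlf fell by a log2 difference of -0.89 (SE 0.10, adjusted p = 6.4e-06), from 16.5 ± 3.97 to 8.79 ± 1.26 CPM. The fall was -0.64 on the log2 scale in females (SE 0.14, adjusted p = 0.0054) and -1.13 in males (SE 0.14, adjusted p = 3.77e-05). Within each library, the log2 level of Ciart minus that of Hlf was -1.06 ± 0.394 in WT and 0.98 ± 0.451 in Tg. Ciart thus had fewer counts than Hlf in all 8 WT libraries (highest difference -0.22) and more in all 8 Tg libraries (lowest 0.43), which restates the 2 separations above.

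**Figure D2:**
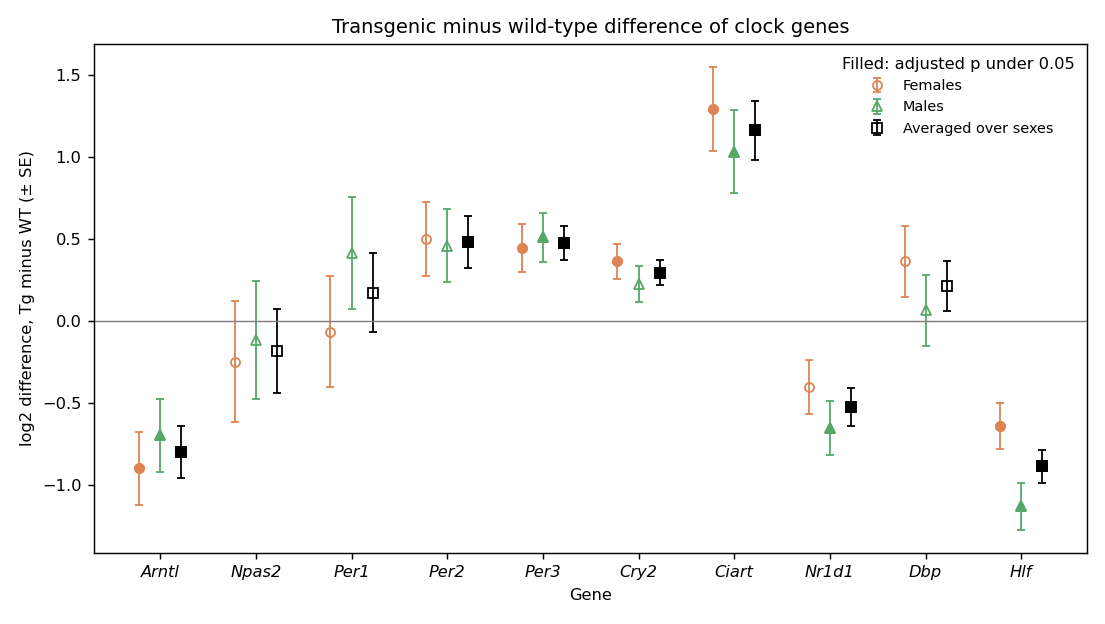
Difference between Tg and WT on the log2 scale (vertical axis) for each gene (horizontal axis), in females (circles), males (triangles) and averaged (squares), with bars of ± 1 SE; filled symbols have an adjusted p under 0.05. Averaged differences run from -0.89 for Hlf to 1.16 for Ciart, and Per2, Per3 and Cry2 lie above 0 while Arntl and Nr1d1 lie below.

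Whether the genotype effect differed between the sexes was tested as an interaction. In females 5 of the 10 genes were called (Ciart, Per3 and Cry2 higher, Arntl and Hlf lower), where 17.7% of all tested genes were (10.1% higher and 7.57% lower). In males 5 were called too (Ciart and Per3 higher, Arntl, Nr1d1 and Hlf lower), against 18.2% of all tested genes (9.85% higher and 8.39% lower). The muscle fibre markers separated the genotypes in males as given above, and their part in the male results was not tested. In limma-voom 4 of the 10 were called in females and 5 in males. For the interaction 0 of the 10 passed in edgeR, DESeq2 or limma-voom, and 1, Hlf, had an unadjusted p under 0.05 in edgeR. Of all tested genes 0.00732% were called for it. The Hlf effect was larger in males by a log2 difference of -0.49 (SE 0.20, unadjusted p = 0.0258, adjusted p = 0.612), and its 95% interval was -0.88 to -0.10. Cry2 and Nr1d1, called in 1 sex each, had interaction values of -0.14 (95% interval -0.44 to 0.16) and -0.25 (-0.70 to 0.20). The female and male effects on these genes are thus not shown to differ.

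The sexes were also compared within each genotype. In WT, Hlf was higher in males, 19.6 against 13.4 CPM on average (log2 0.54, SE 0.14, adjusted p = 0.0423). It was the 1 gene called of the 10, against 3.67% of all tested genes. This call was lost under 11 of 16 omissions of 1 library (all but those of Tg females 1 and 4, WT male 1 and Tg males 1 and 2; log2 0.43 to 0.59, adjusted p up to 0.154) and with adipocyte markers as a covariate (log2 0.48, adjusted p = 0.121). In Tg, where Hlf averaged 8.94 CPM in males and 8.64 CPM in females, 0 of the 10 genes were called in edgeR, DESeq2 or limma-voom, and 0 had an unadjusted p under 0.05 in edgeR. Of all tested genes 0.527% were called there.

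The phase relations were examined across libraries. Since genotype alone would tie together any 2 genes that it changes, each gene's log2 CPM was first centred on the mean of its group, so that the relation is between mice of one genotype and sex. Arntl and Npas2, each against Dbp, Per1, Per2, Per3 and Nr1d1, gave 10 pairs, tested by exact permutation of the libraries within the groups (two-sided) and adjusted over the 10. Pearson's r was below 0 in 9 of the 10 pairs. At an adjusted p under 0.05, 3 pairs were negative: Arntl with Per3, Arntl with Per2, and Npas2 with Per3. The pair of Arntl and Nr1d1 passed with the opposite sign.

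Arntl and Per3 had r = -0.71 over 16 libraries (exact permutation p = 0.0130, adjusted p = 0.0444), with Spearman's rho = -0.73 (exact permutation p = 0.0075). Without Tg female 3 and Tg female 4, the 2 libraries farthest from the median of Arntl, r was -0.78. Arntl and Per2 had r = -0.63 (exact permutation p = 0.0200, adjusted p = 0.04999) and rho = -0.56 (exact permutation p = 0.0461), and r = -0.54 without the same 2 libraries. Per3 and Per2 were thus lower in the mice of a group in which Arntl was higher. Npas2 and Per3 had r = -0.69 (exact permutation p = 0.0133, adjusted p = 0.0444) and rho = -0.65 (exact permutation p = 0.0188). Without Tg female 2 and WT female 4, the farthest for Npas2, r was -0.76. Adjusted over the 10 pairs, rho passed for Arntl with Per3 (adjusted p = 0.0375, exact permutation) but not for Arntl with Per2 (0.0921) or Npas2 with Per3 (0.0626). Npas2 with Per3 did not pass without TMM scaling (r = -0.43, exact permutation, adjusted p = 0.207). Nor did it pass without centring (r = -0.56, adjusted p = 0.0556, by 100000 random permutations over all 16 libraries). Arntl with Per2 lay at the threshold with a prior count of 0.5 (r = -0.63, exact permutation, adjusted p = 0.05).

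Nr1d1 followed Arntl upward. In this pair r was 0.78 (exact permutation p = 0.00578, adjusted p = 0.0444) and rho 0.76 (exact permutation p = 0.00609), with r = 0.75 without Tg female 3 and Tg female 4, and rho passed too (adjusted p = 0.0375, exact permutation). The relation was positive among the WT libraries (r = 0.85 centred on sex, adjusted p = 0.0955) and among the Tg libraries (r = 0.74, adjusted p = 0.396), each by exact permutation with n = 8. Without the 4 adipocyte-rich libraries it was 0.51 (exact permutation, adjusted p = 0.335), and without Tg female 4 alone, which has the lowest Arntl and the lowest Nr1d1, it was 0.63 (adjusted p = 0.073). It was also past the threshold no longer without WT female 3, WT male 2, 3 or 4, or Tg male 1 or 4 (r 0.75 to 0.79, adjusted p 0.0506 to 0.145). Of 10777 genes outside the 10, 8 had a higher r with Arntl than Nr1d1 had.

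The remaining 6 pairs did not pass. Npas2 had r = -0.61 with Dbp and -0.54 with Per2 (exact permutation, adjusted p = 0.0597 for both), and rho = -0.51 and -0.58 (exact permutation p = 0.0713 and 0.0287). Per1 had r = -0.42 with Arntl and -0.39 with Npas2 (exact permutation, adjusted p = 0.104 for both), and rho = -0.44 and -0.36 (exact permutation p = 0.103 and 0.154). Arntl with Dbp gave r = -0.26 (exact permutation, adjusted p = 0.377) and Npas2 with Nr1d1 r = -0.03 (exact permutation, adjusted p = 0.934), with rho = -0.21 and 0.02 (exact permutation p = 0.467 and 0.959). Omission of 1 library made some of these pairs pass (exact permutation). Arntl with Per1 passed without Tg male 3 (r = -0.80, adjusted p = 0.0116) and Npas2 with Dbp without WT female 1 (-0.70, 0.0467). Npas2 with Per2 passed without WT female 2 (-0.69, 0.0143) or WT female 4 (-0.68, 0.0296). Arntl and Npas2, which share a place in the loop, had r = 0.42 (exact permutation p = 0.227) and rho = 0.36 (exact permutation p = 0.233).

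**Figure D3:**
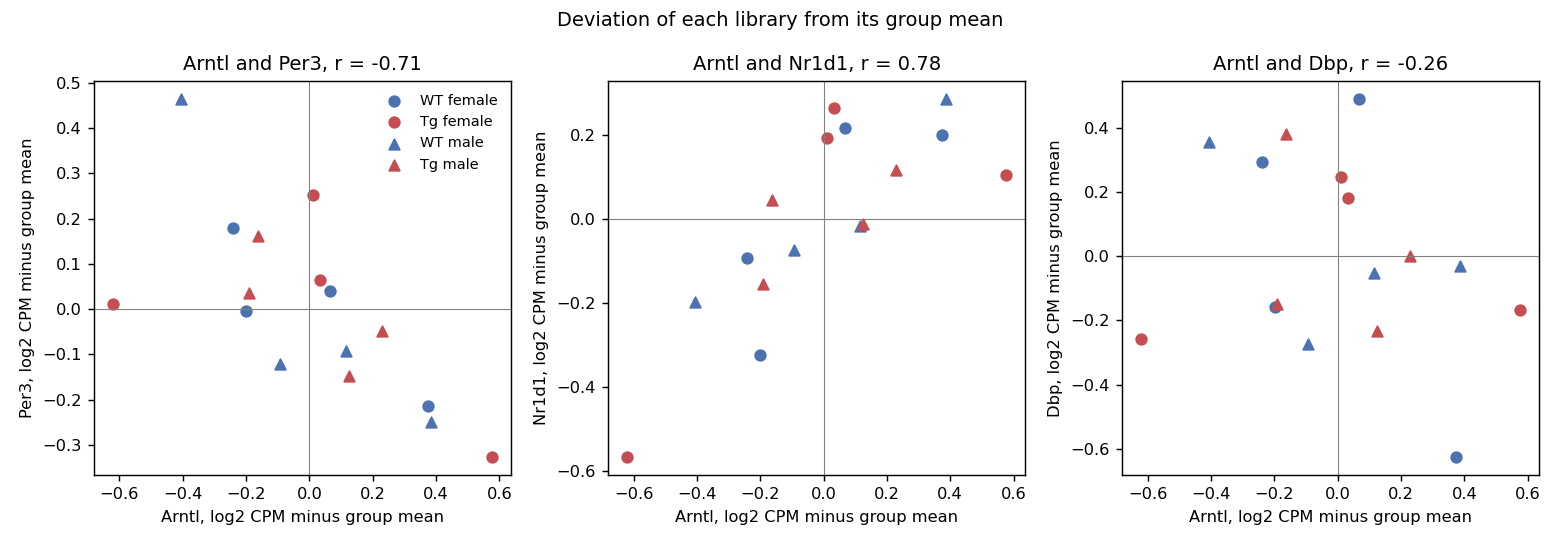
Deviation of each library from its group mean in log2 CPM, Arntl on the horizontal axes and Per3, Nr1d1 and Dbp on the vertical axes; circles are females, triangles males, blue WT and red Tg. The points fall from left to right for Per3 (r = -0.71), rise for Nr1d1 (r = 0.78) and scatter for Dbp (r = -0.26), and Tg female 4 is the point at the lower left of the middle panel.

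These calls rest on few mice and on single libraries. The permutation also treats the libraries as unrelated, while library 3 of all 4 groups lay below its group mean for Per1, Per2, Cry2, Dbp and Ciart and above it for Npas2. Library 2 of all 4 groups lay above its group mean for Per1, Per2, Cry2 and Ciart. The numbers follow the accession order, no label names a shared day or batch, and the part of such a source in the p values was not tested. The number of negative pairs past the threshold was 3, but 0 or 1 when any 1 library was left out other than WT female 1, 2 or 4, WT male 1 or Tg male 3. Without WT male 2 it was 0, and 0 had an unadjusted p under 0.05. Among the 8 WT libraries alone it was 0, with 2 at an unadjusted p under 0.05, and among the 8 Tg libraries 0, with 1. The coefficients themselves kept their sign in both genotypes for Arntl with Per3 (-0.86 in WT, -0.58 in Tg, centred on sex), Arntl with Per2 (-0.66 and -0.60) and Npas2 with Per3 (-0.57 and -0.85). Without the 4 adipocyte-rich libraries 5 negative pairs passed: Arntl with Per3 (r = -0.94, adjusted p = 0.0116) and with Dbp (-0.62, 0.0486), and Npas2 with Dbp (-0.79, 0.0116), Per2 (-0.74, 0.0116) and Per3 (-0.86, 0.0159). Arntl and Npas2 then had r = 0.74 (exact permutation p = 0.0341). The part of adipocyte content in these relations was not tested.

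Beyond the pairs of the activators, Per1, Per2, Per3, Cry2, Ciart and Dbp formed a block, described here without a test. Dbp had r = 0.84 with Ciart and 0.83 with Cry2, Cry2 had 0.77 with Ciart, and Per2 had 0.73 with Per3, 0.71 with Cry2 and 0.71 with Ciart. Hlf went with this block only in part: its r was 0.48 with Per3, 0.44 with Per2 and 0.38 with Cry2. It was 0.12 with Dbp, its own relative, 0.04 with Per1 and -0.06 with Ciart. Nr1d1 stood outside the block, with r from -0.34 with Per2 to 0.20 with Dbp. Between genotypes Hlf and Arntl were both lower in Tg, yet within groups their r was -0.52, and that of Hlf with Nr1d1 -0.56. Without centring, when the genotype difference is part of the relation, these were 0.50 and 0.56. All of these points share the same 16 libraries, their depth and their scaling.

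**Figure D4:**
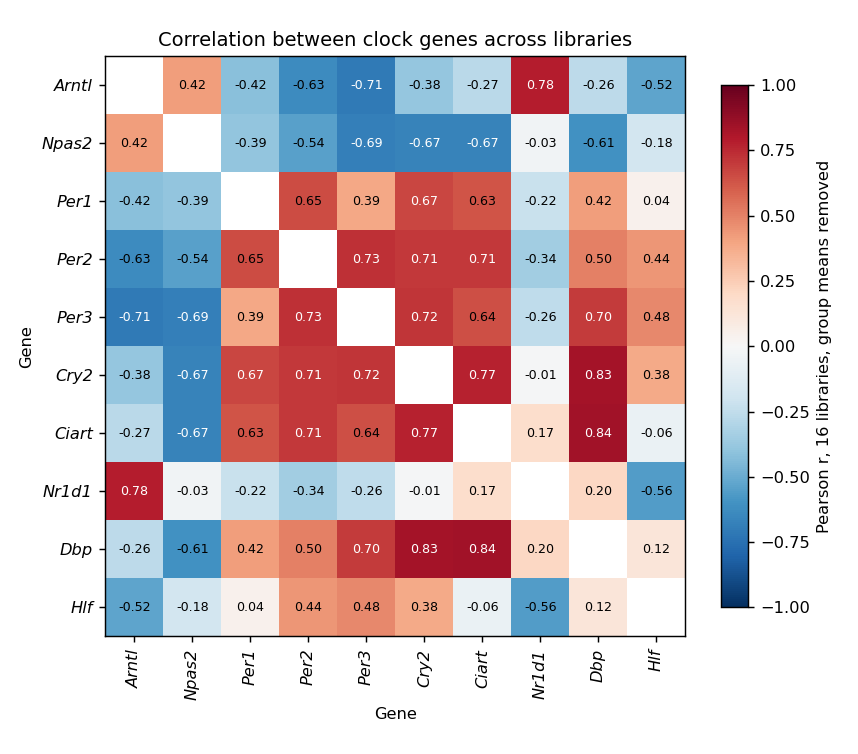
Pearson's r between each pair of the 10 genes over 16 libraries after the group means were removed; rows and columns are genes, red cells positive and blue cells negative, with r printed in each cell. Per1, Per2, Per3, Cry2, Ciart and Dbp form a red block (0.39 to 0.84), Arntl and Npas2 are blue against it (-0.71 to -0.26), and Nr1d1 is red with Arntl (0.78).

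The genes whose pattern was most like that of Arntl, over the same 16 centred libraries and 10777 genes of sufficient level, were P4ha1 (r = 0.85), Sec61g (0.84), Prpf3 (0.83), Arid3b (0.83) and Ssbp1 (0.80). The most opposed were Tada2b (-0.86), Tspan4 (-0.85), Pgm1 (-0.79), Nod1 (-0.78) and Plcg1 (-0.78). For Dbp the nearest were Ccdc97 (0.95), Cpsf1 (0.93), Zbtb17 (0.92), Cdc37 (0.92) and Ranbp3 (0.92), and the most opposed Hsp90b1 (-0.97), Tlr4 (-0.91), Zfp182 (-0.90), Strn (-0.90) and Pdia3 (-0.89). Ciart and Cry2 were passed in their r with Dbp by 94 and 105 of the 10777 genes, so Dbp moved with many genes outside the clock as closely as with these 2.

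Other genes of the clock were taken from a list of 18, of which 17 were tested and Fbxl21 was not. In Tg 4 rose and 3 fell, with 10 not called, beside the 30.4% of all tested genes that were called. The median size of the log2 difference was 0.18 against 0.19 over all genes. Clock, the usual partner of ARNTL, fell by -0.38 on the log2 scale (SE 0.07, adjusted p = 0.000941), from 46.5 ± 5.67 to 35.6 ± 3.97 CPM. Nfil3, a repressor at D-boxes, fell by -0.80 (SE 0.16, adjusted p = 0.00142), and Rora, an activator of Arntl, by -0.30 (SE 0.11, adjusted p = 0.0392). Rora was not past the threshold with no filter on low counts (adjusted p = 0.0503). Nr1d2, the close relative of Nr1d1, rose by 0.23 (SE 0.07, adjusted p = 0.0206), opposite in sign to Nr1d1. Csnk1d, a kinase of PER proteins, rose by 0.17 (SE 0.04, adjusted p = 0.00809) and Usp2, a deubiquitinase, by 0.37 (SE 0.12, adjusted p = 0.0345).

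Cry1 (log2 0.09, adjusted p = 0.28) and Tef, the PAR relative of Dbp and Hlf (log2 -0.11, adjusted p = 0.272), were not called, nor were Rorb, Bhlhe40, Bhlhe41, Csnk1e, Btrc, Timeless and Wee1. Rorb, at 0.11 to 0.91 CPM in Tg libraries, passed without Tg male 3 (log2 -0.99, adjusted p = 0.018). Btrc passed without WT female 2 (log2 -0.18, adjusted p = 0.0383). The calls of Nr1d2, Csnk1d and Usp2 were lost without the adipocyte-rich libraries (adjusted p = 0.125, 0.0844 and 0.186). Among omissions of 1 library, Nr1d2 was lost without WT male 1 (log2 0.20, adjusted p = 0.056). Rora was lost without any Tg male, Tg female 3 or 4, WT female 3 or WT male 2, 3 or 4 (log2 -0.20 to -0.32, adjusted p up to 0.0787). Usp2 was lost without Tg female 1, 2 or 4, Tg male 1 or 2, WT female 1 or 3, or WT male 1, 3 or 4 (log2 0.30 to 0.37, adjusted p up to 0.0813).

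Genes known as outputs of the muscle clock, several of them in glucose and fuel handling, were taken from a list of 10, all tested. In Tg 2 rose and 3 fell, beside the 30.4% of all tested genes that were called, and the other 5 (Tcap, Slc2a4, Nampt, Por and Tspan4) were not called. Tbc1d1, a regulator of glucose transporter traffic, fell by -1.20 on the log2 scale (SE 0.19, adjusted p = 0.000284), from 89.9 ± 51.4 to 38.4 ± 14.3 CPM. Pdk4, the kinase that switches pyruvate dehydrogenase off, fell by -0.78 (SE 0.17, adjusted p = 0.00292), and Pdp1, the phosphatase that switches it on, rose by 0.65 (SE 0.12, adjusted p = 0.000512). Hexokinase Hk2 rose by 0.29 (SE 0.07, adjusted p = 0.0053), a call lost without the adipocyte-rich libraries (log2 0.22, adjusted p = 0.0757). The third gene that fell was Myod1, the myogenic factor, by -0.40 (SE 0.11, adjusted p = 0.0116). Por averaged a log2 difference of 0.10 (adjusted p = 0.831) with all libraries and passed without the adipocyte-rich ones (0.77, adjusted p = 0.000246).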

How the data were processed

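Messenger RNA of 16 quadriceps was sequenced as stranded paired-end libraries, per the labels' protocols. Tools listed in the submitters' processing notes are cutadapt 1.2.1, TopHat2, Bowtie2 and bcl2fastq, with the build mm10. The values deposited by the authors were taken as estimated counts per gene symbol, since their totals differ between libraries and 93.5% of nonzero values lie within 0.01 of a whole number. The program that made these counts is not given in the sources used here. They were rounded to whole numbers, which moved none by more than 0.5.

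In R 4.3.3, filterByExpr (minimum count 10, minimum total 15) left 13666 genes for edgeR 4.0.16, with TMM factors of 0.887 to 1.10. All 16 libraries entered 1 fit with the 4 groups as its terms (glmQLFit, robust), from which 6 contrasts were taken. Genes were called at an adjusted p under 0.05, and the SE is the log2 difference divided by the square root of F. Alternatives were DESeq2 1.42.0, limma-voom 3.58.1, no filter, an adipocyte marker covariate, no interaction, other scalings for correlations, and each library left out. Correlations used log2 CPM with a prior count of 2 and 331776 arrangements of the libraries within groups. Without centring, 100000 random permutations over all 16 libraries were used. Tests were checked on simulated data. Leaving out the 4 libraries with summed adipocyte markers above 1000 CPM or Ucp1 above 100 CPM was added after seeing the data. The 10 genes and all lists were chosen with earlier results of these data known. The text names all 10 genes and tested genes of the clock list, some of which are not reported here. It names up to 4 called genes with the smallest adjusted p in each of 2 other lists and 5 pattern neighbours in each direction. Myod1, Por, Fkbp5 and the uncalled genes of the muscle list are named beyond that rule. Gene positions are from GENCODE M21 and promoter windows from RefSeq (GRCm38.p6).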

Additional observations from a re-analysis of the deposited data

Results flagged for a closer look

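In 3 of 40 groups of 4 libraries, 1 library lay far from the other 3, where chance alone marks about 1 group in 20. Npas2 was at 0.4964 CPM in WT female 4, below the 1.308 to 1.406 CPM of the other WT females. WT male 2 stood high for a pair of genes. It had 23.53 CPM of Per2 against 13.06 to 14.68 CPM in the other WT males, and 12.34 CPM of Ciart against 7.041 to 7.883 CPM. Without WT male 2 the Per2 difference in males was 0.70 on the log2 scale and passed the threshold (adjusted p = 0.0324), against 0.46 with it. As WT male 2 was picked for its high Per2, leaving it out lowers the WT mean and widens this difference by itself.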

How the results depend on the processing

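No paired analysis was run, because no label ties a Tg mouse to a WT mouse, and replicates were numbered by accession. The genotype tests, like the permutations, treat the libraries as unrelated. Whether libraries of the same number share a source was not tested. The number of the 10 genes called ranged, when each library was left out in turn, from 6 to 7 averaged over the sexes, 3 to 5 in females, 3 to 6 in males, 0 to 0 for the interaction, 0 to 1 between the sexes in WT and 0 to 0 in Tg. Negative pairs past the threshold ranged from 0 to 4 of 10, and the correlation of Arntl and Npas2 from 0.15 to 0.57. Without the 4 adipocyte-rich libraries males had 3 called genes, 5 negative pairs passed, and the correlation of Arntl and Npas2 was 0.74. Negative pairs were 0 in WT alone and 0 in Tg alone. No other setting run moved these counts by over 1.5 times. The adipocyte covariate and the omission of the 4 libraries were not run for the counts between the sexes within a genotype. Signs turned, for values that had not passed the test, without the 4 libraries for Npas2 (0.030 averaged, 0.18 in females), Slc2a4 (-0.021), Per1 in females (0.083), Dbp in males (-0.055) and the correlation of Npas2 and Nr1d1 (0.12). The last was also 0.10 without centring, 0.069 without TMM and 0.017 in Tg alone, Per1 in females was 0.015 with the adipocyte covariate, and the correlation of Arntl and Dbp was 0.015 in Tg alone. Among omissions of 1 library, signs turned within the ranges of Dbp in males (-0.078 to 0.20), Npas2 in males (-0.29 to 0.033), Per1 in females (-0.23 to 0.10), Por (-0.015 to 0.36), Timeless (-0.0013 to 0.12) and the correlation of Npas2 and Nr1d1 (-0.17 to 0.18). The cause was not tested. Depth limits Npas2 most.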

Other observations

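Genes that respond to glucocorticoid hormones, which also act on Per1 and other clock genes, were read from a list of 8. Averaged over the sexes, 3 of the 8 fell in Tg and the other 5 did not pass the test, beside the 30.4% of all tested genes that were called. Of these 5, Fkbp5 (averaged log2 -0.82, adjusted p = 0.0701) passed in DESeq2 (-0.84, adjusted p = 0.028) and in limma-voom (-0.91, adjusted p = 0.0313). In edgeR it passed without WT female 1, Tg female 1 or Tg male 2 (adjusted p 0.0202 to 0.0497). Tsc22d3 fell by -0.61 on the log2 scale (SE 0.15, adjusted p = 0.00552), from 232 ± 40.1 CPM in 8 WT libraries to 151 ± 39.2 CPM in 8 Tg libraries. Sgk1 fell by -0.73 (SE 0.21, adjusted p = 0.0168) and Zbtb16 by -0.63 (SE 0.18, adjusted p = 0.0171). The median log2 difference of the list was -0.82 in females and -0.0024 in males, where the medians over all tested genes were -0.03 and 0.03. Tsc22d3, Sgk1 and Zbtb16 had log2 differences of -0.75, -0.95 and -0.74 in females and of -0.47, -0.50 and -0.52 in males. In females 4 of the 8 were called, all lower, where 17.7% of all tested genes were called. Zbtb16 was not among them (edgeR, adjusted p = 0.0627). In males 0 of the 8 passed the test, where 18.2% of all tested genes were called. Fkbp5 had a log2 difference of -1.65 in females (SE 0.46, adjusted p = 0.0258) and of 0.01 in males (SE 0.45, adjusted p = 0.991). The difference between these 2 effects did not pass the test (log2 1.66, SE 0.64, adjusted p = 0.602), so the sexes are not shown to differ.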
